A study of Mus musculus with 2 samples.

Results

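The 42 ABC transporter genes described here are the protein-coding genes of subfamilies ABCA, ABCB, ABCC, ABCE, ABCF and ABCG, chosen by symbol, with Abca1, Abca7, Abcb4 and Abcg1 left out. They are 42 of the 55536 genes of the deposited gene tables, of which 21888 are nuclear and protein-coding. Total RNA, with ribosomal RNA reduced, was sequenced from the whole adrenal gland of adult female mice aged 8 to 10 months. Their parents' strains were 5xFAD, which carries transgenes that model Alzheimer's disease, and CAST, an inbred strain derived from wild mice, and The Jackson Laboratory was the source. The labels give 1 group of 2 biological replicates, here mouse 1 and mouse 2, and 300 ng of RNA with ERCC spike-in RNA went into each library. The 2 samples share 1 donor identifier, so only their replicate numbers mark them as different animals. The presence of the transgenes in either was not examined here. With no second group, the levels, the spread between the mice and the agreement of the authors' 2 quantifications of the same reads are described.

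ABC transporters bind ATP on a pair of nucleotide-binding domains and use its hydrolysis to move a substrate across a membrane. The ABCB, ABCC and ABCG subfamilies hold the drug and steroid efflux pumps, ABCA proteins move mainly lipids, and several ABCB proteins sit in mitochondria. ABCE and ABCF proteins have the same ATP-binding domains but cross no membrane and act on ribosomes, and Abcc8 and Abcc9 are regulatory subunits of a potassium channel rather than pumps. In the adrenal gland, the efflux pump P-glycoprotein is known for its high level in the steroid-producing cortex.

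The gene tables summed to 36558609 (mouse 1) and 32192201 (mouse 2) expected counts, and the 42 genes took 0.192% and 0.206% of them. All 12 adrenal cortex markers and all 10 chromaffin markers were at 1 TPM or more in both mice, TPM being a level scaled to transcript length and library total. Of paired values, the first is mouse 1 and the second mouse 2. The 12 adipocyte markers summed to 1630 and 2739 TPM, and the 9 red blood cell markers to 756 and 418 TPM. In whole glands, fewer cells of a type and less RNA per cell cannot be told apart.

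A single gene, Abcb1b, stood far above the others. Abcb1b encodes a P-glycoprotein, an efflux pump for drugs and steroids, and lies at chromosome 5, 8798147 to 8866315 (mm10), on the plus strand. It stood at 304 and 319 TPM (311 ± 10.6, SD, n = 2), from 33271 and 32071 counts. This was 52.4% and 50.9% of the summed TPM of all 42 genes and 47.5% and 48.4% of their counts. Its TPM was 10.2 and 8.77 times the next member of each mouse. Among the 21888 nuclear protein-coding genes it ranked 91 by mean TPM, counted from the highest.

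Its neighbour Abcb1a (chromosome 5, 8660077 to 8748575) encodes the other mouse P-glycoprotein, the form known from the blood-brain barrier and the intestine. Abcb1a stood at 11.99 and 14.82 TPM. Abcb1b was thus 25.3 and 21.5 times Abcb1a, and 25.8 and 21.9 times in the second quantification.

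The pair is similar enough for reads to be shared. The coding sequences of Abcb1a-201 and Abcb1b-201 were identical at 88.2% of aligned bases, and the longest identical stretch ran for 338 bases. Of the 31-base words in Abcb1a transcripts, 21.7% also occur in Abcb1b, and 14.8% of those in Abcb1b occur in Abcb1a. The stretch below lies inside the longest identical run, at coding bases 1519 to 1653 of Abcb1a and 1528 to 1662 of Abcb1b. It is shown because reads that match it fit both genes. Capitals mark the bases that encode the ABC signature motif, which contacts ATP.
Abcb1a and Abcb1b: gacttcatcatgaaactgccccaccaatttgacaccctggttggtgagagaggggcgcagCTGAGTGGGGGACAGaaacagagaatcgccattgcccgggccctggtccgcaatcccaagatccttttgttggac

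The next 2 lines show the 60 coding bases where the pair differs most, since reads that match either sequence can be assigned. They are coding bases 1913 to 1972 of Abcb1a and 1922 to 1981 of Abcb1b, with the 25 differing bases in capitals and the 35 identical bases in lower case.
Abcb1a: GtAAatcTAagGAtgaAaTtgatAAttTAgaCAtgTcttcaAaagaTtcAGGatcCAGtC
Abcb1b: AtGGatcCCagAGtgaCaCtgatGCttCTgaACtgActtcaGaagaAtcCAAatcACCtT
The authors' quantifier gave a posterior SD of about 17.1 counts for each gene in mouse 1 and 16.9 and 16.8 counts in mouse 2. These are small beside the 2290 and 2366 counts of Abcb1a, but they hold only within the authors' model and reference. They do not cover alleles of these mice that may differ from the reference. The signature codons, searched in frame in the longest coding sequence of each gene with no mismatch in the amino acids, occurred 2 times in Abcb1a and Abcb1b, 1 time in 21 other members and in none of the remaining 19, which include 10 of the ABCA genes.

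The other multidrug pumps were present at far lower levels than Abcb1b. Abcc5, which exports cyclic nucleotides and nucleotide analogues, was the highest ABCC gene at 21.4 and 23.5 TPM. Abcc1, the glutathione-conjugate and leukotriene pump, stood at 5.94 and 7.59 TPM, and Abcc4, a pump for cyclic AMP, prostaglandins and steroid conjugates, at 5.56 and 6.50 TPM. Abcg2, a transporter that works as a dimer and exports drugs, urate and steroid sulfates, stood at 6.50 and 7.37 TPM. Abcc5 was above the other 3 in both mice, and Abcc1, Abcc4 and Abcg2 did not keep 1 order. In the gene tables mouse 1 had Abcg2 above Abcc1 and mouse 2 had Abcc1 above Abcg2. In the second quantification Abcg2 was above Abcc1 in both mice, with 7.32 and 7.66 against 5.51 and 7.26 TPM. Abcc10, a broad drug pump, stood at 2.85 and 3.34 TPM, and Abcc3, the basolateral pump for glucuronides and bile salts, at 1.35 and 1.63 TPM.

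The enzymes that make conjugates for such pumps were in part much higher. Of 20 phase II conjugation genes, 13 were at 1 TPM or more in both mice, against 54.4% of all nuclear protein-coding genes. Highest were the glutathione transferases Mgst1 at 575 and 637 TPM and Gstp1 at 117 and 128 TPM. Of 23 solute carriers of drugs, bile acids and organic anions, 5 were at 1 TPM or more, with Slc22a5, the carnitine carrier, highest at 10.6 and 12.5 TPM. Of 15 transcription factors that control transporter genes elsewhere, 10 were at 1 TPM or more. Nr5a1, the steroidogenic factor, led with 232 and 274 TPM, while the xenobiotic sensors Nr1i2 and Nr1i3 stood at no more than 0.01 and 0.04 TPM.

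Mitochondrial members were present. Abcb8, part of a potassium channel complex and linked to iron export, was the highest at 23.8 and 25.1 TPM. Abcb6, a porphyrin-linked transporter, stood at 9.38 and 8.07 TPM, and Abcb10, needed for haem synthesis in red cell precursors, at 3.44 and 4.21 TPM. Abcb8 was above Abcb6, and Abcb6 above Abcb10, in both mice. Of 20 listed genes of haem and iron-sulfur cluster synthesis, 19 were in the table, and all 19 were at 1 TPM or more in both mice. Among all nuclear protein-coding genes 54.4% were. Alas1, the first enzyme of haem synthesis, was the highest of the 19 at 516 and 528 TPM. Abcb9, a lysosomal peptide transporter, stood at 3.41 and 3.77 TPM.

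Abcb6 overlaps a long RNA gene, Gm29253, on the same strand, over 2932 exonic bases. Of its 31-base words, 52.1% also occur in that gene, which the authors' model left at 0.22 and 0.26 TPM. The posterior SD of the Abcb6 count was 12.7 in mouse 1 and 11.2 in mouse 2, beside 794 and 648 counts. Abca3 overlaps D330041H03Rik on the other strand over 914 exonic bases, and that gene stood at 2.02 and 2.44 TPM. The library kit keeps strand, but whether the counting used it is not given in the sources used here, so reads of such antisense pairs may not be told apart.

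The 4 members that act on ribosomes were all among the 11 members at 10 TPM or more in both mice. Of the 55536 genes, 6484 had a mean of 10 TPM or more, so other genes reach that level too. The share of protein-coding genes that reach it was not counted. Abcf1, which promotes translation initiation, stood at 29.8 and 30.8 TPM. Abcf2 stood at 25.3 and 27.5 TPM, and Abcf3, which like Abcf2 belongs to the ribosome-associated ABCF group, at 26.5 and 36.4 TPM. Abce1, which splits ribosomes after termination, stood at 20.2 and 23.4 TPM. Abce1 was the lowest of the 4 in both mice, and the top place was held by Abcf1 in mouse 1 and Abcf3 in mouse 2. The ABCF genes together held 14.1% and 15.1% of the members' TPM, second to the ABCB genes with 63.0% and 61.6%.

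Abcf3 differed more between the mice in TPM than in counts. It had 1917 and 1766 counts, and after scaling to library size these were 0.016 apart on the log2 scale (95% counting interval -0.08 to 0.11). Its full-length transcript, Abcf3-201 of 3090 bases, stood at 13.5 and 13.8 TPM in the 2 mice, and the rest of its TPM was in shorter transcripts: Abcf3-201 held 51.0% of the gene's TPM in mouse 1 and 37.9% in mouse 2. All 14 of 15 listed recycling and initiation partners found in the table were at 1 TPM or more, against 54.4% of all nuclear protein-coding genes. Eif2s3x, a subunit of initiation factor eIF2, was the highest of the 14 at 49.4 and 58.6 TPM.

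Of the 14 lipid-moving ABCA genes, 7 were at 1 TPM or more in both mice. Abca2, a lysosomal and endosomal transporter linked to sphingolipid and sterol handling, stood at 14.1 and 13.0 TPM. Abca8a stood at 11.1 and 12.3 TPM. Abca3, the phospholipid transporter of lamellar bodies, stood at 8.15 and 9.25 TPM. Abca2 was above both in both mice and by both quantifications. Abca8a was above Abca3 in the gene tables, and below it in the second quantification, with 7.10 and 7.93 TPM for Abca8a and 7.84 and 8.57 TPM for Abca3. Abca4, the retinoid flippase of photoreceptors, stood at 4.01 and 2.49 TPM, of which only 12.1% and 20.6% were in coding transcripts. Abcg4, a dimeric exporter of sterols that is best known from brain, stood at 14.7 and 15.9 TPM, the highest ABCG member.

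5 ABCA genes lie side by side on chromosome 11, between 109932190 and 110337716 on the minus strand, and arose from one another by duplication. From the first position on they are Abca8b at 2.18 and 2.53 TPM, Abca8a at 11.1 and 12.3, Abca9 at 4.70 and 5.57, Abca6 at 0.82 and 0.73, and Abca5 at 4.61 and 5.26. Abca8a was highest and Abca6 lowest of the 5 in both mice, with Abca9 and Abca5 close to each other. Abca8a and Abca8b, the closest pair by sequence, were identical at 76.5% of aligned coding bases and shared 3.11% and 3.23% of their 31-base words with other genes. The adjacent Abca14, Abca15 and Abca16 on chromosome 7, identical at 70.2% to 71.1% between neighbours, were at 0 in both mice.

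The sulfonylurea receptors regulate ATP-sensitive potassium channels and were low. Abcc9, which pairs with the pore subunit Kcnj8 in smooth muscle and pericytes, stood at 3.29 and 4.31 TPM. Abcc8, the receptor of pancreatic beta cells and neurons, stood at 0.82 and 1.01 TPM, from 77 and 79 counts. Abcc9 was above Abcc8 in both mice, and their pores were in the same order: Kcnj8 at 3.15 and 3.11 TPM, and Kcnj11 at 0.77 and 0.59 TPM. The pericyte and smooth muscle markers, a list that holds Kcnj8, summed to 64.9 and 70.2 TPM.

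Abcc9 can end in either of 2 last coding exons, each of 135 bases before the stop codon, and the forms with different tails are known to respond differently to nucleotides and drugs. Abcc9-203 ends in the distal exon, at chromosome 6, 142590369 to 142590503, and 4 other transcripts end in the proximal exon, at 142594008 to 142594142, both on the minus strand. Abcc9-203 held 82.9% of the gene's TPM in mouse 1 and 85.8% in mouse 2, and the 4 proximal-exon transcripts held 3.07% and 0%. The remaining share was in Abcc9-205, a short transcript with neither exon. In the second quantification the shares were 69.6% and 70.3% against 23.7% and 20.1%. The distal form was the larger in both mice by both methods, and the size of the proximal share depended on the method. Both exons are shown, with the 66 bases at which they differ in capitals.
Abcc9-203: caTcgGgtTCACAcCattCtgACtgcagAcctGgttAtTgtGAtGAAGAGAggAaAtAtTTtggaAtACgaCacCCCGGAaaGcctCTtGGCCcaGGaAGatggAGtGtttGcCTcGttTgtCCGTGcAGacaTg
Abcc9-201: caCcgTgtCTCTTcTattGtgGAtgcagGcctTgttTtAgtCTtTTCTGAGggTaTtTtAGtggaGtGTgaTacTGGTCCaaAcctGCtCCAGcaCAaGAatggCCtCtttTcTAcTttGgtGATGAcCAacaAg
The distal exon was identical at 72.4% of aligned bases to the last 135 coding bases of Abcc8, and the proximal exon at 62.6%.

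Members known for bile, skin, and testis were at or near 0. Abcb11, the bile salt export pump, Abcc2, the canalicular pump for conjugates, and the sterol exporters Abcg5 and Abcg8 had between 0 and 5 counts in each mouse. Abcc6, the liver gene mutated in a calcification disorder, had 6 and 3 counts. Abca12, which loads lipid into skin lamellar granules, had none. Abca13, Abca17, Abcb5 and Abcc12 had at most 7 counts, and Abcg3, a rodent relative of Abcg2, had 14 and 15. In the second quantification of the same reads Abca12 had 6.16 and 7.09 counts and Abcc2 had 15.0 and 7.01, so at this level the 2 methods differ by more than the limit that follows. Taking 3 counts as the most that a count of 0 allows, the upper limit of such a gene was 0.0821 CPM, counts scaled to library size, and 0.0932 CPM. Of 10 liver markers, 3 reached 1 TPM in both mice, among them Cyp2e1 at 86.8 and 128 TPM and Ahsg at 1.96 and 2.43 TPM. Alb, the defining one, was not among the 3, at 0.46 and 1.89 TPM. Of the kidney markers 1 of 10 reached 1 TPM, and 6 of the 8 testis and sperm markers were at 0 in both mice.

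In all, 26 of the 42 members were at 1 TPM or more in both mice. This is 61.9% of the members, against 54.4% of all nuclear protein-coding genes. 11 members were at 10 TPM or more in both mice, 15 were below 1 TPM in both, 4 of these were at 0 in both, and Abcc8 passed 1 TPM in mouse 2 alone. By mean TPM, 12 of the 42 members and 6484 of the 55536 genes of all kinds were at 10 TPM or more. The share of protein-coding genes at 10 TPM was not counted. The median member had a mean of 3.70 TPM and the median nuclear protein-coding gene 1.90 TPM. Among genes at 1 TPM or more the order was the other way, with 8.71 TPM for the members and 10.3 TPM for all. By subfamily, 7 of 9 ABCB, 6 of 10 ABCC, 3 of 3 ABCF, 2 of 5 ABCG and the only ABCE gene reached 1 TPM. Of the 11 ABC genes outside the rule, 10 did, with Abca1, the cholesterol exporter, highest at 51.1 and 63.1 TPM, below Abcb1b in both mice.

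**Figure D1:**
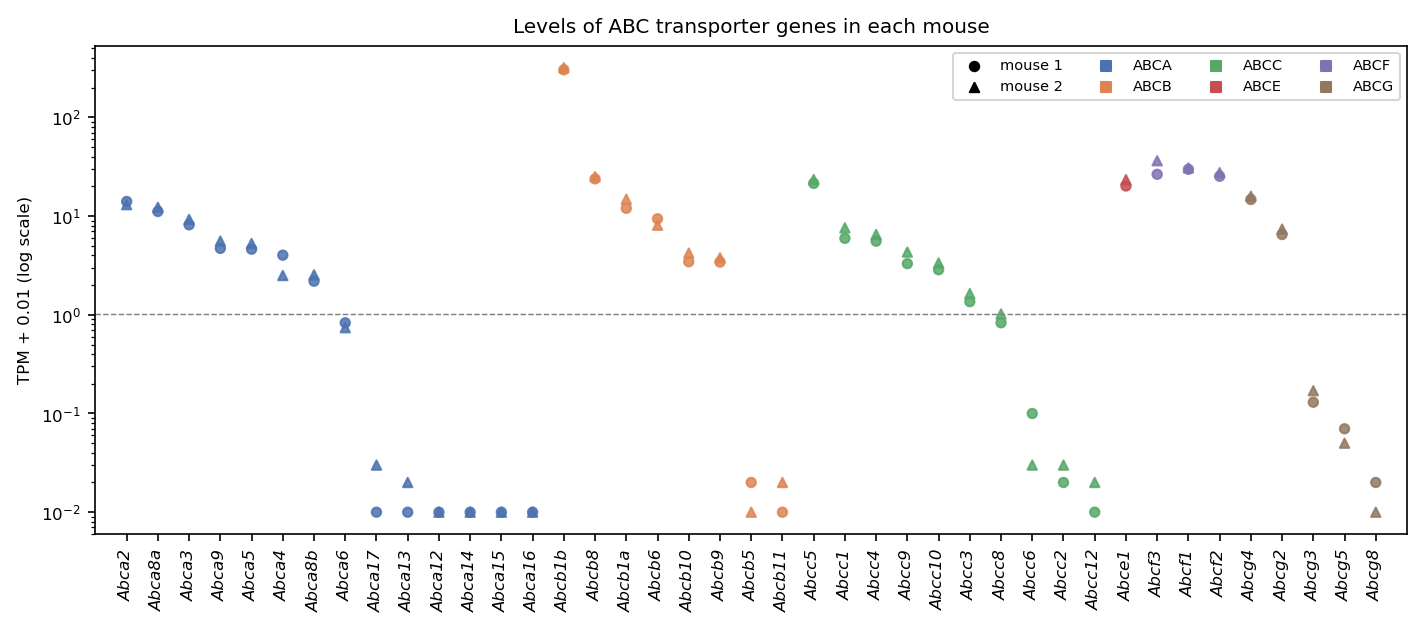
Level of members in mouse 1 (circles) and mouse 2 (triangles), as TPM plus 0.01 on a log axis, by subfamily and falling mean, with a dashed line at 1 TPM. Abcb1b, at 304 and 319 TPM, stands 10.2 and 8.77 times above the next member, and 15 members lie below the line in both mice.

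The plot of levels by subfamily shows a gap below the line: apart from Abca6 and Abcc8, each member either reached 1 TPM in both mice or stayed at 0.16 TPM or less.

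Of the 42 members, 29 had a mean of at least 10 counts and were compared as log2 ratios of mouse 2 to mouse 1. None of the 29 was 2-fold apart, against 2.96% of the 17666 genes compared and 1.64% of the 14477 nuclear protein-coding genes among them, so the count of 0 is near the background. The ratios ran from -0.62 for Abca4 to 0.33 for Abcc3, and the median size was 0.08 for the members, 0.13 for all genes and 0.12 for the nuclear protein-coding genes. 19 members were higher and 10 lower in mouse 2. With scaling to total counts, which moved the median of all genes from 0.00 to 0.05, the split was 22 to 7, and with ERCC scaling 17 to 12.

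7 of the 29 members differed between the 2 libraries by more than counting error, by an exact binomial test (two-sided) with Benjamini-Hochberg adjustment over all 17666 genes. This is a share near that of all genes, 20.9%, and it compares 2 libraries, not conditions. The largest difference was that of Abca4, with 213 counts in mouse 1 and 126 in mouse 2. Its log2 ratio was -0.62 (95% counting interval -0.95 to -0.30, binomial adjusted p = 0.00122). This ratio is over all its transcripts. Coding transcripts held only 12.1% of its TPM in mouse 1 and 20.6% in mouse 2, and were not compared alone. Higher in mouse 2 were Abca8a (0.25; 1531 and 1662 counts), Abcc1 (0.25; 1299 and 1408 counts), Abcc9 (0.23; 844 and 903 counts), Abcb1a (0.18; 2290 and 2366 counts) and Abcb1b (0.08; interval 0.06 to 0.10). Abcf1 was lower in mouse 2 with a ratio of -0.10, and of the 7 its adjusted p, 0.0446, was nearest the threshold. It did not pass with total count scaling (adjusted p = 0.386) or in the second quantification (adjusted p = 0.0929).

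Abcb1b, with the highest counts, passed at a ratio of 0.08, while Abcc3, at 0.33 with 155 and 178 counts, did not pass (adjusted p = 0.136). All 12 adipocyte markers were higher in mouse 2, with a median log2 ratio of 0.72, and the medians were -0.95 for 6 red blood cell markers, -0.15 for 12 cortex markers, 0.07 for 11 endothelial markers and -0.10 for 10 pericyte and smooth muscle markers. Their part in the members' differences was not tested. Among partner genes past the same test, 2 of 19 haem and iron-sulfur genes were higher and 5 lower in mouse 2, 1 of 14 ribosome partners was higher and 1 lower, and 4 of 16 phase II genes were higher and 1 lower. 5 of 12 transcription factors and 3 of 10 solute carriers were higher in mouse 2 and none lower. Over all 17666 genes 20.9% passed in either direction, and their split by direction was not counted.

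**Figure D2:**
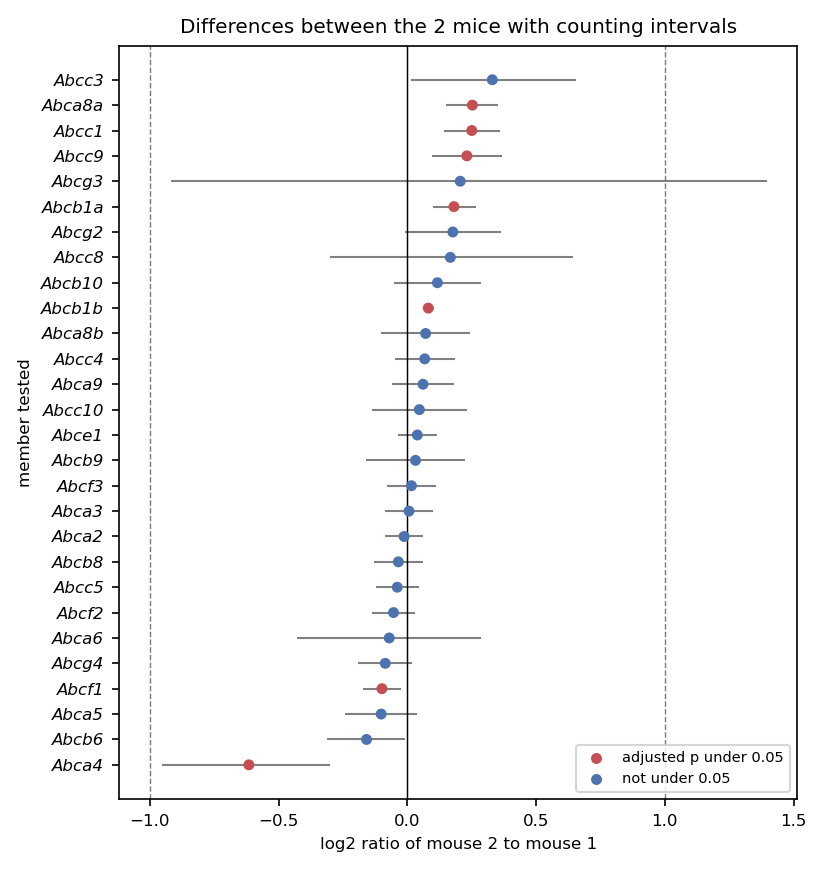
The log2 ratio of mouse 2 to mouse 1 for members tested, with 95% intervals that cover counting error only, red where the adjusted p was under 0.05, and dashed lines at 2-fold. Every point shown lies between the dashed lines, and Abca4 at -0.62 is farthest from 0.

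In the plot of ratios, the widest interval belongs to Abcg3, which had 14 and 15 counts, and the narrowest to Abcb1b. Abcg3's interval, -0.92 to 1.40, reaches past 2-fold on the higher side.

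The 2 quantifications of each library gave similar levels for these genes. None of the 26 members with a mean of at least 1 TPM was 2-fold apart between them, against 4.78% of 13524 genes. The count of 0 is near that background. The median log2 ratio of the second to the first was -0.09 for the members and -0.06 for all genes. The largest differences were lower in the second: Abca8a went from 11.7 to 7.52 TPM (log2 ratio -0.63), Abcb6 from 8.73 to 6.40 (-0.44), Abca5 from 4.94 to 3.82 (-0.36) and Abcc5 from 22.5 to 18.1 (-0.31). Abcg4 was the member that gained most, from 15.3 to 18.02 TPM (0.24). In estimated counts each of these 5 was higher in the second, for Abca8a 1672 and 1817 against 1531 and 1662. The falls are thus in TPM, which is also scaled to transcript length and library total. Of these 5, Abcb6 is the 1 with much shared sequence, and 0.0646% to 3.11% of the 31-base words of the others were shared with another gene.

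**Figure D3:**
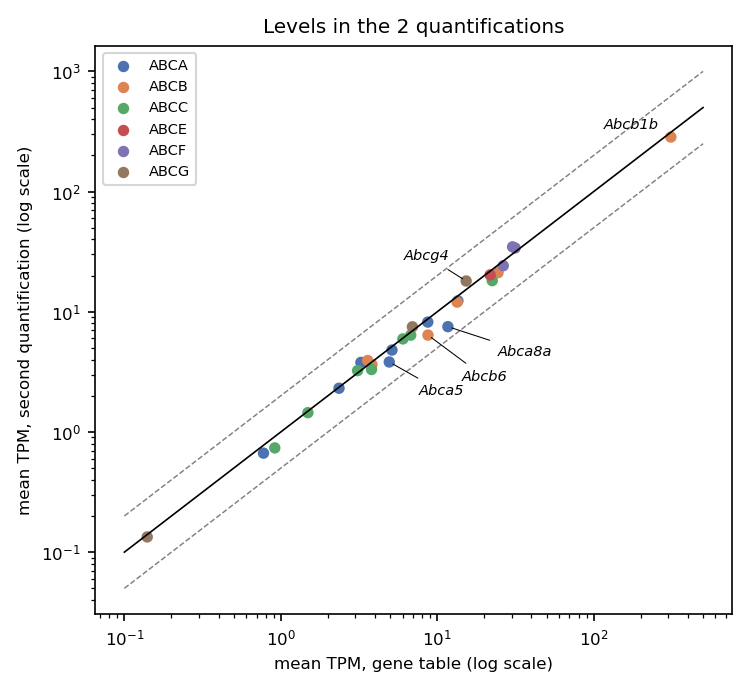
Mean TPM of members at 0.1 TPM or more in the gene table (x) and in the second quantification (y), both on log axes, with the line of equality and dashed lines at 2-fold. Every member shown lies inside the dashed lines, and Abca8a (11.7 and 7.52 TPM) is farthest from equality.

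The plot of both quantifications shows the same top member, Abcb1b, at 311 TPM in the first and 284 TPM in the second.

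By mean share, the leading transcript was the same in both quantifications for all 26 members at 1 TPM or more, and for 25 it was protein-coding. The exception was Abca4. Its leading transcript was Abca4-210, a non-coding processed transcript of 765 bases with 48.5% of the gene's TPM in mouse 1 and 45.5% in mouse 2, followed by Abca4-203, a retained-intron transcript with 38.1% and 32.2%. The protein-coding Abca4-207 held 11.9% and 19.6%. Abca4 was thus the member with the lowest share in coding transcripts, and also the one farthest apart between the mice.

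Abcb1b was led by Abcb1b-201, the full-length coding transcript of 4306 bases, with 58.4% of its TPM in mouse 1 and 68.5% in mouse 2. The short coding transcript Abcb1b-206, of 613 bases, held 25.7% and 17.6%. Abcb1b-203, annotated for nonsense-mediated decay, held 14.1% and 12.2%. Even the full-length transcript alone, at 177 and 218 TPM, was above every other member. By contrast Abcb1a-201 held 95.4% and 99.1% of Abcb1a.

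Abcc5 was the second lowest in coding share. Its transcripts annotated with a retained intron held 44.7% of the TPM in mouse 1 and 42.8% in mouse 2, and Abcc5-202, its leading coding transcript, 27.7% and 23.5%. Other members with a mean of 10 TPM or more mostly had a clear leader: Abcf2 has 1 annotated transcript, Abce1-201 held 88.6% and 86.0%, Abcf1-201 82.3% and 84.5%, and Abca2-201 68.3% and 83.5%. Abca8a-201 held 48.99% and 62.26% of Abca8a, but 77.5% and 99.2% in the second quantification. Abcg4-208 held 35.4% and 32.2% of Abcg4. For Abcb8 the first table gave Abcb8-201 37.6% and 28.1% and Abcb8-203 18.9% and 31.7%, and the second gave Abcb8-201 62.3% and 52.4% and Abcb8-203 8.48% and 9.08%, so a change of leader between the mice was seen in the first table alone. For the low-level Abcc8 the first table gave the full-length Abcc8-201 32.2% and 37.9% and Abcc8-207, of 466 bases, 41.1% and 23.7%. The second gave Abcc8-201 50.5% and 39.7%, Abcc8-202 29.4% and 23.3%, and Abcc8-207 0% in both mice.

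Over the 26 members the median share in coding transcripts was 86.4%, against 90.4% over 11899 nuclear protein-coding genes at 1 TPM or more. 9 of the 26 were under 80%, which is 34.6%, against 33.1% of those genes. In Abca2, Abca8a and Abcc3 the share outside coding transcripts was in processed transcripts, and in Abcc10, Abcg4 and Abcc5 mostly in retained introns.

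**Figure D4:**
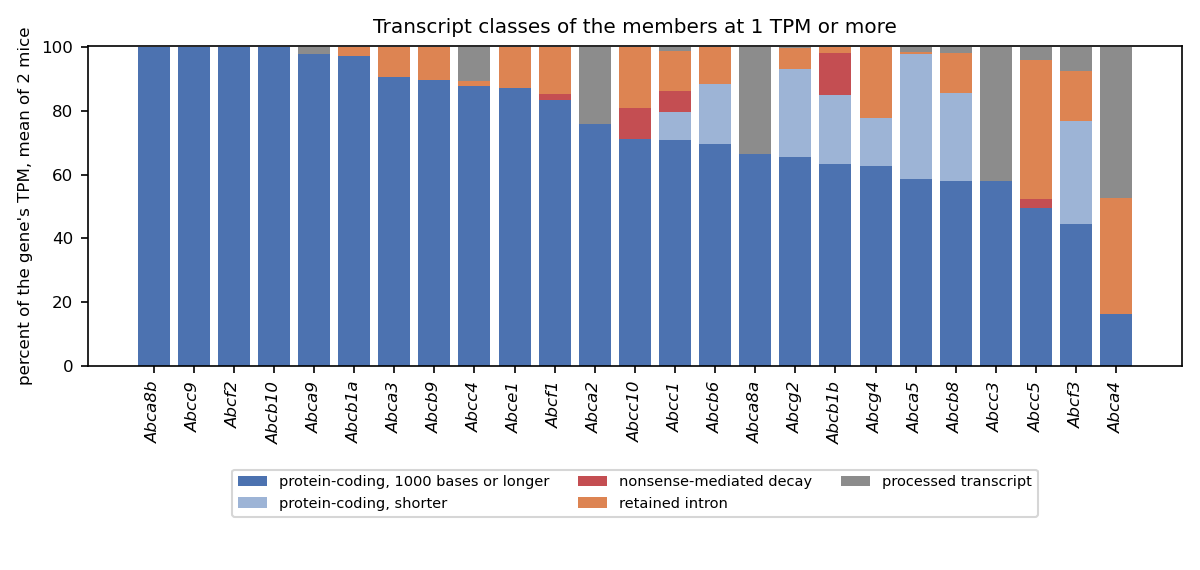
Share of each gene's TPM by annotated transcript class, as the mean of both mice, for members at 1 TPM or more, ordered by the share in coding transcripts of 1000 bases or longer (dark blue). Abca4 has the smallest coding share, at 16.3%, and Abca8b, Abcb10, Abcc9 and Abcf2 are at 100%.

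In the plot of transcript classes the light blue parts, coding transcripts shorter than 1000 bases, are largest in Abca5, Abcf3, Abcb8 and Abcg2. Shares of short transcripts are set by the model that splits reads, and of the 14 leading shares followed in both methods, 10 moved by more than their SD between the mice.

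Promoter windows, from 250 bases before to 50 after the start, were matched in RefSeq (GRCm38.p6) for 34 members, with 40 windows in all. The window of Abcb1b, chr5:8797897-8798196 on the plus strand, is shown because its gene stands so far above the others. Capitals mark the CCAAT box (CCAAT) and the GC box (GGGCGG), each searched on both strands.
Abcb1b: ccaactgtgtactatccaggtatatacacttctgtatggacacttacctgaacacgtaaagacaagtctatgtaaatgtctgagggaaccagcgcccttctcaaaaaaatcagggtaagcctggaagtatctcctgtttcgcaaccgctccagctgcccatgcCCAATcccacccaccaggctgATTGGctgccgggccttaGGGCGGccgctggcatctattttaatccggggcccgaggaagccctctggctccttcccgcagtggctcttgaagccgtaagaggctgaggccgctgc
This window held 2 CCAAT boxes, 1 on each strand, a GC box after them and 12 CpG dinucleotides. The letters of the SF-1 site (AAGGTCA) and of the E-box (CACGTG) are not in it.

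A GC box was in 17 of 26 windows of members at 1 TPM or more, which come from 21 genes, and in 1 of 14 windows of the other members, which come from 13 genes. Counted by gene this is 14 of 21 and 1 of 13, the last being Abcg3. The same split is seen in all genes: 63.3% of windows of nuclear protein-coding genes at 1 TPM or more held a GC box, 24.8% of the others, and 35.7% of all 32851 windows. The median number of CpG dinucleotides was 18.5 in the windows of members at 1 TPM or more and 6 in the others, against 21 and 4 for all nuclear protein-coding genes split in the same way. The CCAAT box was in 6 of 26 and 8 of 14 windows, against 37.2% and 38.8% for all nuclear protein-coding genes split in the same way and 37.4% of all windows. The SF-1 site was in 3 of 40 against 4.72%, and the E-box in 5 of 40 against 7.15%. The RefSeq start of Abcb1a lies 92986 bases from its nearest GENCODE transcript start, so its window does not lie at a start of the annotation used for the counts.

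**Figure D5:**
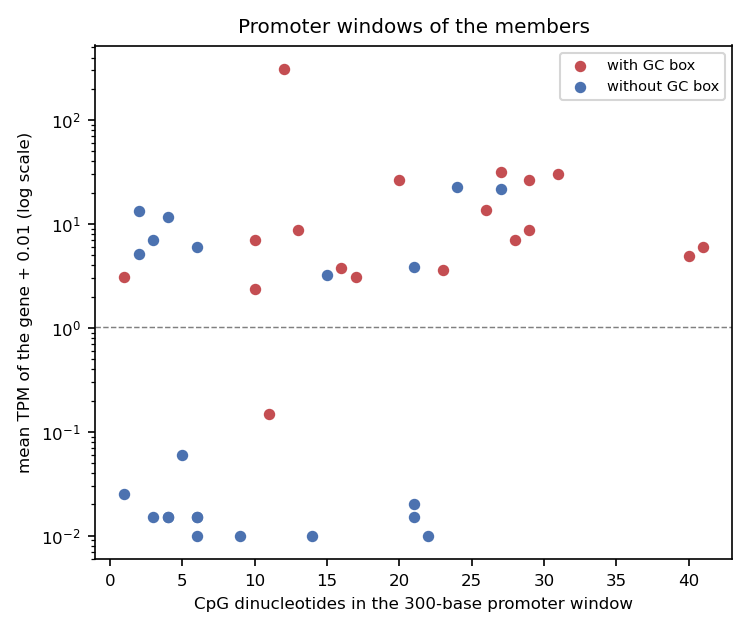
CpG dinucleotides in each of the 40 matched 300-base windows (x) against the mean TPM of its gene plus 0.01 on a log axis (y), red where the window held a GC box, with a dashed line at 1 TPM. 1 of the 14 windows below the line is red and 17 of the 26 above it are.

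The plot of promoter windows also shows members above the line with few CpG dinucleotides, among them Abca9 and Abcb1a with 2 each and Abca8a with 4. These are descriptions of letters in the windows; no binding was measured.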

How the data were processed

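Reads were mapped to mm10 with GENCODE M21 annotation, per the file headers and deposited text; no source used here names the aligner or the quantifiers. The deposited gene and transcript tables give expected counts (estimated, not whole), TPM, FPKM and each transcript's percent of its gene, all made by the authors from transcriptome alignments. The deposited posterior SD of a count is used as a score of uncertainty. A second deposited table, made from reads and a transcript index, gives estimated counts and TPM, and was summed to genes.

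Rows that name no gene, 0.503% and 0.527% of the counts, stayed out. Ratios used expected counts with TMM scaling (edgeR 4.0.16, R 4.3.3, prior count 2, mean of at least 10 counts). Counts were rounded for the exact binomial test with a 0.05 threshold, which was checked on simulated data. The simulated counts held only the counting error that the test assumes, so the check covers the calculation and not these libraries. The quantifications were compared as TPM plus 0.1. Intervals are 95% Clopper-Pearson and hold counting error alone. Without molecular identifiers reads may not be separate molecules, so the intervals may be too narrow and the binomial p-values too small. Spread is between these 2 samples.

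All members enter the counts, and 1 item is not reported here or drawn in the plots; full values are given for the 4 highest of each subfamily, members adjacent to copies, and the largest differences, and other single genes were chosen after their values were seen. Members and lists were chosen with earlier results of these data known. Alternatives were other scalings, filters, thresholds, pseudocounts, FPKM, posterior mean TPM, protein-coding genes alone, the second quantification and each mouse alone. Sequences are from the GENCODE transcripts and RefSeq, and the alleles of these mice, which may differ from them, were not examined. Other steps used Python 3.11.15 and Biopython 1.88.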

Additional observations from a re-analysis of the deposited data

How the results depend on the processing

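The number of members at 1 TPM or more was 26 to 28 with a 0.5 TPM threshold, the second quantification, posterior mean TPM, FPKM or protein-coding rescaling, and fell to 11 with a threshold of 10 TPM. The median member level rose from 3.70 to 11.9 TPM when TPM was rescaled over nuclear protein-coding genes, which hold 29.4% and 32.3% of all TPM. Without the count filter, 2 members were 2-fold apart between the mice, Abca13 with 2 and 7 counts and Abcg5 with 5 and 1, and neither passed the binomial test. With 6 or 7 members beyond counting error under every scaling and filter run, that count kept its size. With each mouse alone, the number at 1 TPM was 26 and 27, the median level 3.43 and 3.99 TPM, and the median leading transcript share 63.3% and 76.0%. In the second quantification 12 of 26 levels moved by more than their SD between the mice, 3 up and 9 down. With 2 mice of 1 group, no comparison between conditions and no test of a mean is possible, and members below about 10 counts can be called neither equal nor different.

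No paired analysis was possible because the labels give 1 group.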
